A study of Mus musculus with 20 samples.

Results

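Ion channels and ionotropic receptors are the membrane proteins through which ions cross the cell surface, and the genes described here code for their pore-forming and auxiliary subunits. They were taken by symbol from the RNA count files of mouse embryonic skin: every row whose symbol begins with Kcn, Scn and a digit, Cacna, Cacnb, Cacng, Gria, Grik, Grin, Gabr, Clcn, or Trpc, Trpm, Trpv or Hcn and a digit. The rule found 205 of the 23432 gene rows. By symbol they split into 40 voltage-gated potassium pores, 8 potassium pores gated by calcium, sodium or pH, 15 inward rectifiers, 14 leak potassium pores of the K2P family and 17 potassium channel auxiliary subunits. They also hold 4 HCN pores, 10 sodium pores, 4 sodium channel beta subunits, 10 calcium pores and 16 calcium channel auxiliary subunits. The receptor and other families are 4 AMPA, 5 kainate and 7 NMDA glutamate receptor subunits, 19 GABA-A receptor subunits, 9 ClC chloride channels and exchangers and 21 TRP channels. The remaining 2 rows, the long noncoding RNA Kcnq1ot1 and the TRP-associated protein gene Trpc4ap, match the symbols but are no channels.

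Pore subunits set which ion passes and what opens the gate, and auxiliary subunits set how many channels reach the membrane and how fast they open and close. Potassium channels hold the resting potential, calcium channels turn a change in voltage into calcium entry, AMPA, kainate and NMDA receptors open to glutamate, and GABA-A receptors pass chloride. These genes are best known from nerve and muscle, but keratinocytes use several of them, among them TRP channels that pass calcium, the ion whose gradient across the layers accompanies epidermal differentiation.

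The RNA libraries form 4 groups of 3, and all embryos carried at least 1 allele with GFP knocked into {delta}Np63, the delta-N transcript unit of Trp63, which codes for the epidermal transcription factor p63. Het epidermis (genotype {delta}Np63 -GFP KI-Het) was collected at embryonic day 9 (E9) and embryonic day 13 (E13), KO epidermis (genotype {delta}Np63 -GFP KI-KO) at E13, and Het dermis at E13. No group without the reporter allele was used here, the KO allele was present in the whole embryo, and epidermal cells were recognised by GFP and dermal cells by CD140a, the product of Pdgfra. The labels do not say whether replicates came from separate embryos, so p-values measure only the spread between these samples. Ribosomal RNA was removed from the epidermal samples and oligo(dT) selection was used for dermis, so tissue and RNA selection cannot be told apart in any comparison with dermis. Gene counts ran from 3373819 to 33386872 per library, and E13 Het replicate 1 and KO replicate 3 had the fewest genes with a count, 10765 and 11275. The targeted gene matched the labels: Trp63 was at 520, 611 and 454 CPM in E13 Het and at 23.0, 25.0 and 20.4 CPM in KO epidermis, with a log2 fold change of -4.54 ± 0.28 (edgeR adjusted p = 1.54e-06). The 7 keratinocyte markers summed to 1565 to 4150 CPM in epidermal and 6.06 to 9.13 CPM in dermal libraries, and the 10 dermal mesenchyme markers to 226 to 2226 and 32020 to 42900 CPM. Levels are CPM, counts scaled to a common library total with TMM factors over the 12 libraries, are not divided by gene length, and are listed in replicate order. Changes are log2 fold changes ± standard error from edgeR's quasi-likelihood test, and a gene is said to have risen or fallen where its Benjamini-Hochberg adjusted p over all genes tested is under 0.05.

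Fewer channel genes than other genes were detected in every group. In E9 Het epidermis 53 of the 205 members, 25.9%, had at least 1 CPM in all 3 libraries, where 46.5% of all genes did. The same count was 48 members, 23.4%, in E13 Het epidermis, 61 members, 29.8%, in KO epidermis and 78 members, 38%, in dermis, beside 43.8%, 45.5% and 49.4% of all genes. A further 97 members reached this level in no group and 12 had no count in any library. Library depth differs between the groups, so these counts describe the libraries.

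The 21 members detected in all 4 groups were drawn from many roles. They include 6 ClC genes (Clcn2, Clcn3, Clcn4-2, Clcn5, Clcn6 and Clcn7), the calcium pores Cacna1a, Cacna1b and Cacna1h with the auxiliary subunits Cacnb3 and Cacng4, the sodium pore Scn8a with the beta subunit Scn2b, the glutamate receptor subunits Gria3 and Grik5, and the TRP channels Trpc2, Trpm4 and Trpm7. Trpm7, a magnesium and calcium channel fused to a kinase, was at 208, 223 and 182 CPM in E9 Het, 131, 229 and 214 CPM in E13 Het, 203, 267 and 225 CPM in KO and 185, 162 and 164 CPM in dermis. Its libraries overlap in each of the 4 comparisons and it passed the test in none, with log2 fold changes between -0.09 and 0.27. Cacnb3, a beta subunit that brings calcium pores to the membrane, was at 61.5 to 63.1 CPM in E9 Het, 74.2 to 92.8 CPM in E13 Het, 83.1 to 121 CPM in KO and 63.9 to 96.3 CPM in dermis, and passed in none either.

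Reads of 2 members made up much of the epidermal total. Kcnq1ot1, the noncoding RNA that silences neighbouring genes on the paternal chromosome at the imprinted Kcnq1 locus, and Gabrp, the pi subunit of the GABA-A receptor that is known from epithelia, together took 35.2% to 60.4% of the members' CPM in epidermal libraries and 1.66% to 3.4% in dermal ones. All members together summed to 2190, 2194 and 2329 CPM in E9 Het, 2429, 2798 and 3839 CPM in E13 Het, 4260, 4203 and 4427 CPM in KO and 2683, 2098 and 2284 CPM in dermis. Without Kcnq1ot1 and Gabrp the other 203 members summed to 1229, 1267 and 1508 CPM in E9 Het, 1163, 1453 and 1522 CPM in E13 Het, 2291, 2304 and 2469 CPM in KO and 2592, 2063 and 2230 CPM in dermis. The KO libraries lie above both other epidermal groups in both sums. These sums are a description with no test, and they weight each gene by its reads.

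**Figure D1:**
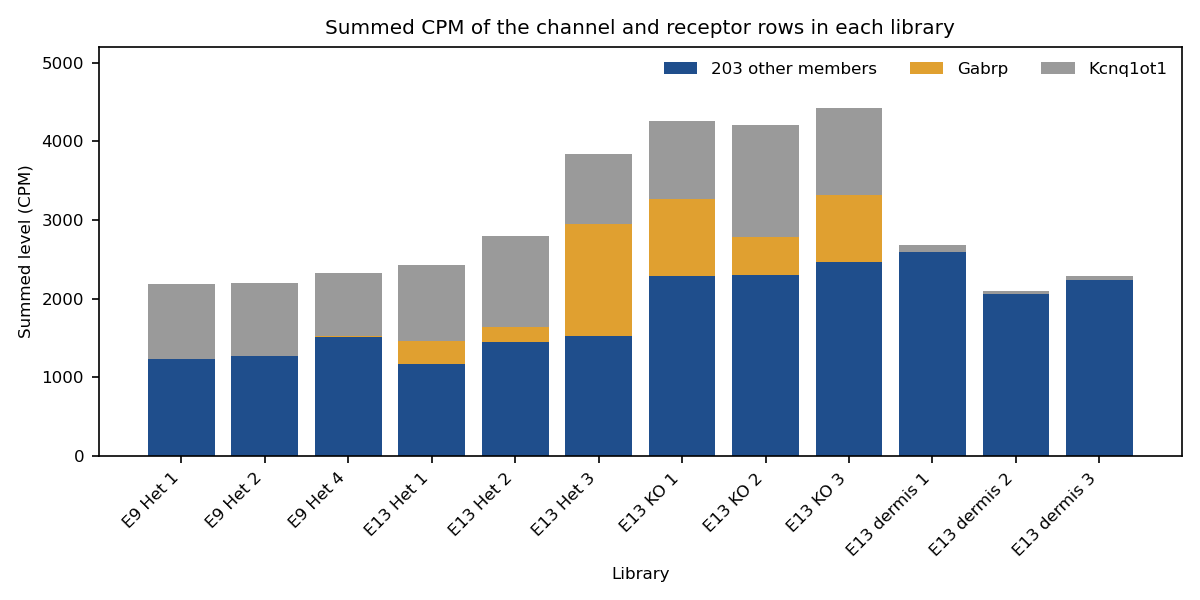
Stacked bars of the summed CPM of the 205 channel and receptor rows in each of the 12 libraries, split into Kcnq1ot1, Gabrp and the 203 other members. The KO libraries reach 4203 to 4427 CPM, the other epidermal libraries 2190 to 3839 CPM, and dermal libraries hold almost no Gabrp.

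The comparison of KO with Het epidermis at E13 asks which channel genes differ when {delta}Np63 is missing. In KO epidermis 4 members rose, among them the NMDA receptor subunit Grin3a, the calcium pore Cacna1e and the sodium-activated potassium pore Kcnt2, and no member fell. The 4 are 3.88% of the 103 members tested, and 2.2% of all 13052 genes tested were called, 0.835% higher and 1.36% lower. By role, 1 of 3 NMDA subunits, 1 of 7 calcium pores and 1 of 5 potassium pores gated by calcium, sodium or pH were called. At an unadjusted p under 0.05 there were 14 members in both directions together, 13.6% beside 11.4% of all genes, and DESeq2 called 7 higher and 2 lower and limma voom 8 higher and 1 lower. Only members with enough counts in some libraries could be tested, so a member absent from Het epidermis could enter only by being high elsewhere, and the counts describe the tested members alone.

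Grin3a codes for an NMDA receptor subunit that lowers the calcium permeability and magnesium block of receptors that contain it. It lies at chr4:49661611-49846023 and was at 17.9, 14.7 and 21.1 CPM in E13 Het and 157, 116 and 294 CPM in KO epidermis. The KO libraries do not overlap the Het libraries, and the log2 fold change was 3.40 ± 0.45 (edgeR adjusted p = 0.00131). A second gene, Ppp3r2, lies within the Grin3a span and moved with it, at 0, 1.48 and 0 CPM in E13 Het and 11.8, 12.5 and 9.06 CPM in KO. Whether counting used strand was not stated, so reads of overlapping genes cannot be told apart.

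Cacna1e codes for the pore of R-type calcium channels, which open at intermediate voltages. It lies at chr1:154390806-154884785 and overlaps no other counted gene. Its level was 19.9, 20.6 and 53.4 CPM in E13 Het and 193, 158 and 208 CPM in KO epidermis, with no overlap. The log2 fold change was 2.56 ± 0.39 (edgeR adjusted p = 0.00267). Among the other 6 calcium pores tested, none passed and the log2 fold changes ran from -1.09 to 1.15.

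Kcnt2 codes for a potassium channel that opens as sodium rises inside the cell, and lies at chr1:140245657-140614045. It was at 0, 1.73 and 0 CPM in E13 Het, 54.7, 83.4 and 108 CPM in KO, 7.37, 7.57 and 0.229 CPM in E9 Het and 2.02, 0 and 5.63 CPM in dermis. All KO libraries lie above all others, and the log2 fold change against E13 Het was 6.88 ± 1.28 (edgeR adjusted p = 0.0258). Its call was less stable than those of Grin3a and Cacna1e: it was lost when E13 Het replicate 1 or 3 or any KO replicate was left out (adjusted p up to 0.0785), and was at 0.126 without the library with fewest genes of each group. Grin3a and Cacna1e kept their calls in all 6 refits that left out 1 library of either group, with edgeR adjusted p of at most 0.0144 and 0.017. With all 12 libraries in 1 fit, Grin3a passed and Cacna1e and Kcnt2 did not.

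The 250 bases upstream of the start listed for Cacna1e and Kcnt2, the genes higher in KO epidermis that the RefSeq promoter table of GRCm38.p6 holds, are shown with matches to the motifs described below in capitals. The Cacna1e window, chr1:154725921-154726170 on the minus strand, belongs to a start inside the gene's span and holds no match at 52% G+C. The Kcnt2 window, chr1:140245468-140245717 on the plus strand, reaches into the gene's span and has 61.6% G+C and 2 CCAAT boxes, both read on the other strand as ATTGG.
Cacna1e upstream: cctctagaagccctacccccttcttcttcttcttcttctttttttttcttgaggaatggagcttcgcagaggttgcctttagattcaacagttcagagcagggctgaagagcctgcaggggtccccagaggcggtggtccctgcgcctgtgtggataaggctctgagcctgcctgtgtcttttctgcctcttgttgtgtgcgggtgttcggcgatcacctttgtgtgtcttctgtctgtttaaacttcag
Kcnt2 upstream: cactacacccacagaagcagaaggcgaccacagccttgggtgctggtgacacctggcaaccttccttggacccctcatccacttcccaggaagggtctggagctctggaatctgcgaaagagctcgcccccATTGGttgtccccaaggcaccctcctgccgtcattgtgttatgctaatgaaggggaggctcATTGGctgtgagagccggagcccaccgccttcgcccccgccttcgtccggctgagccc

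**Figure D2:**
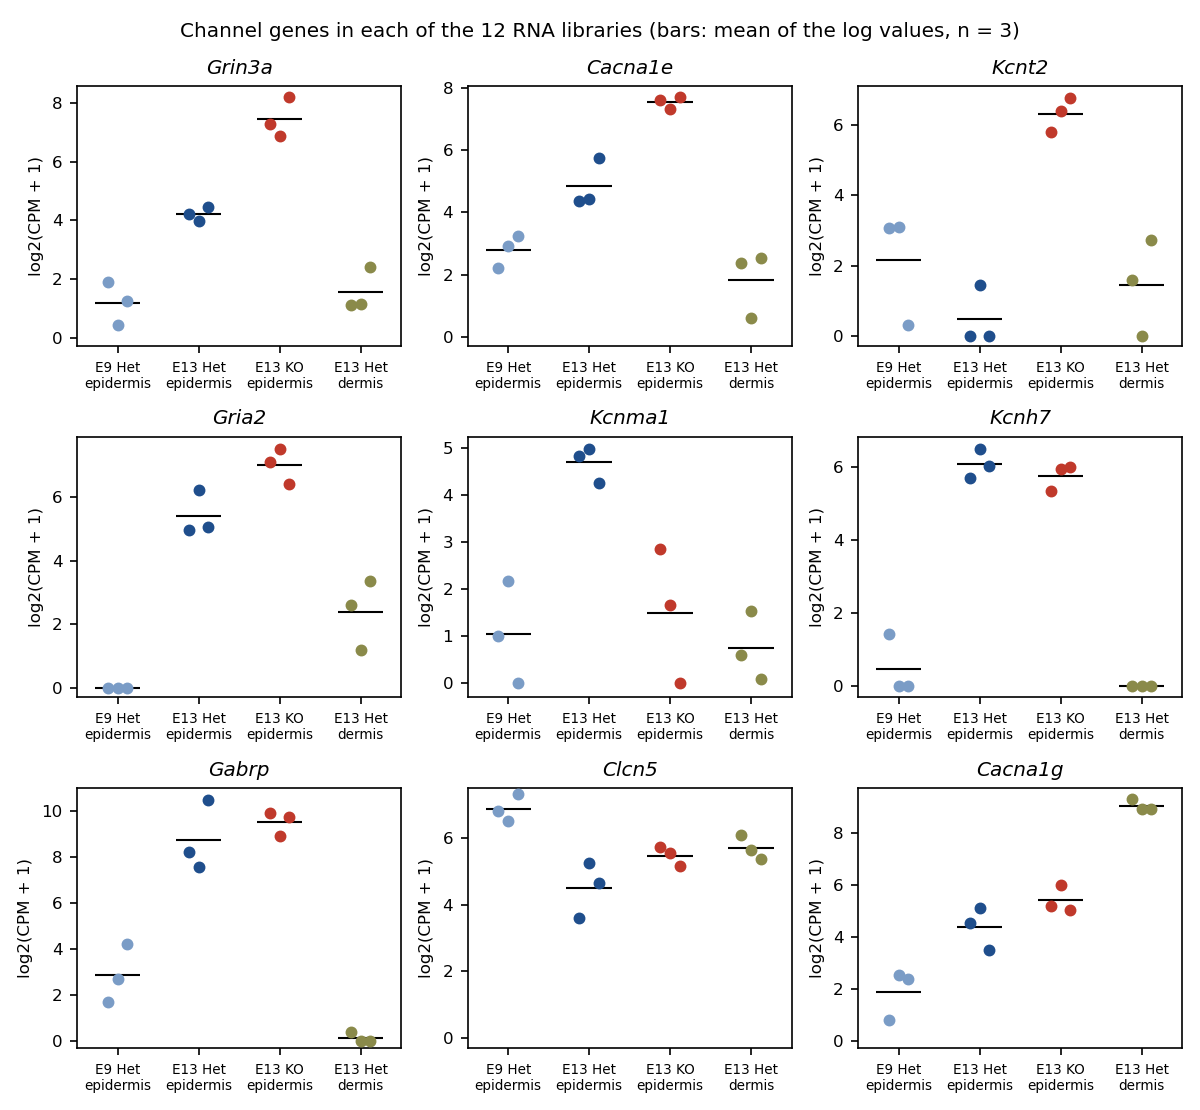
Level of 9 channel genes as log2(CPM + 1) in each of the 12 libraries (points), with the mean of the log values of each group of 3 (bars). Every KO library lies above every other library for Kcnt2, Grin3a, Cacna1e and Gria2, Kcnma1 is highest in E13 Het epidermis, Kcnh7 and Gabrp are high in both E13 epidermal groups, Clcn5 is highest at E9, and Cacna1g is highest in dermis.

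Over all 103 tested members, the 4 called ones included, more values lay above 0 than below in KO epidermis. Their median log2 fold change was 0.486, and that of all genes 0.025, and 67 were above 0. KO and Het libraries were fully separate in 29 members, 28.2%, beside 20% of all genes. In 20 members, 19.4% of those tested, every KO library lay above every Het library, beside 10.6% of all genes, and in 9 members, 8.74%, every KO library lay below, beside 9.36%. The AMPA subunits had log2 fold changes of 0.78 to 1.54 and the kainate subunits a median of 1.65, with none called. Gria2, the AMPA subunit that makes the receptor impermeable to calcium, was at 30.3, 74.2 and 32.5 CPM in Het and 137, 183 and 83.6 CPM in KO, without overlap, at 1.54 ± 0.39 (edgeR adjusted p = 0.0742). Grik5, a kainate subunit that binds glutamate with high affinity and needs a partner subunit, was at 8.59, 19.4 and 36.3 CPM in Het and 64.0, 58.8 and 81.0 CPM in KO, without overlap, at 1.65 ± 0.41 (edgeR adjusted p = 0.0546).

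Other members moved by more but varied more between replicates. Kcnd2, a potassium pore that carries the fast transient A-type current, was at 0.678, 4.94 and 3.57 CPM in Het and 29.4, 34.1 and 21.5 CPM in KO (3.18 ± 1.09, edgeR adjusted p = 0.21). Kcnq5, a slowly opening potassium pore, was at 0, 8.65 and 48.5 CPM in Het and 87.5, 61.0 and 140 CPM in KO (2.33 ± 1.56, adjusted p = 0.687). Both sets of libraries do not overlap, yet neither gene passed. Trpm5, a calcium-activated TRP channel known from taste cells, was at 0, 1.24 and 0 CPM in Het and 8.19, 5.37 and 12.7 CPM in KO (edgeR adjusted p = 0.455), and the auxiliary subunit gene Kcne1l at 0, 1.11 and 0.341 CPM and 13.8, 5.10 and 7.50 CPM (adjusted p = 0.46).

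In the other direction, Kcnma1, the large-conductance potassium pore gated by calcium and voltage, was at 27.6, 30.8 and 18.2 CPM in E13 Het epidermis and 6.21, 2.15 and 0 CPM in KO epidermis. All KO libraries lie below all Het libraries, at a log2 fold change of -3.18 ± 1.30, and the gene did not pass (edgeR adjusted p = 0.333). Kcnma1 and the inward rectifier Kcnj14 are among the 3 members that were detected in all 3 libraries of E13 Het epidermis and of no other group. Kcnj14 was at 4.07, 4.69 and 1.87 CPM in E13 Het, 0 to 3.22 CPM in KO epidermis and 0 to 2.33 CPM in dermis. Its E13 Het libraries thus overlap those of KO epidermis and of dermis.

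Conversely, 7 members were detected in all 3 libraries of KO epidermis and of no other group. Among them, besides Kcnt2, are the calcium channel beta subunit Cacnb4, the GABA-A subunit Gabrg1 and the potassium pores Kcnh3 and Kcnh6. Kcnh3 was at 2.58, 1.34 and 28.2 CPM in KO, so that its mean rests on replicate 3. Its KO libraries overlap those of E13 Het (0, 1.61 and 2.55 CPM) and E9 Het (0, 0.528 and 2.29 CPM). Kcnh6 was at 1.06, 1.61 and 3.10 CPM in KO. Gabrg1 was at 2.58, 1.61 and 4.40 CPM in KO, had 1 count over the 3 E13 Het libraries and none in E9 Het or dermis. Cacnb4 was at 2.58, 2.42 and 3.88 CPM in KO and at or below 0.618 CPM in Het epidermis of both ages.

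Markers of neurons moved with the KO group. The 12 neuron and neural tube markers summed to 112 to 196 CPM in KO, 10.4 to 40.0 CPM in E13 Het and 72.7 to 100.2 CPM in E9 Het epidermis, and 1 of 10 tested, Map2, was called higher in KO (2.99 ± 0.66, edgeR adjusted p = 0.0408). Map2 made up much of the sum, at 76.4, 122 and 44.8 CPM in KO and 1.81, 12.7 and 15.5 CPM in E13 Het. The median log2 fold change of the 10 was 2.17. In 5 of the 12 markers (Dcx, Map2, Nefl, Nefm and Syt1) every KO library lay above every E13 Het library, and in none below. Dcx was at 8.49, 7.79 and 9.06 CPM in KO and 0, 2.22 and 1.87 CPM in E13 Het, and Nefl at 18.5, 18.3 and 5.43 CPM and 0, 1.11 and 3.23 CPM. Tubb3 was at 6.37, 5.50 and 0 CPM in KO and 0, 4.82 and 0.511 CPM in E13 Het, which overlap, and Snap25 at 0, 0.134 and 0 CPM and 0, 1.98 and 0 CPM. The glia markers summed to 232 to 262 CPM in KO and 129 to 189 CPM in E13 Het, nearly all of it Erbb3, and those of dermal mesenchyme to 1144 to 2226 and 436 to 1508 CPM. The part of other cells in the KO results was not tested, and fewer cells of a type and less RNA per cell cannot be told apart in bulk samples.

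**Figure D3:**
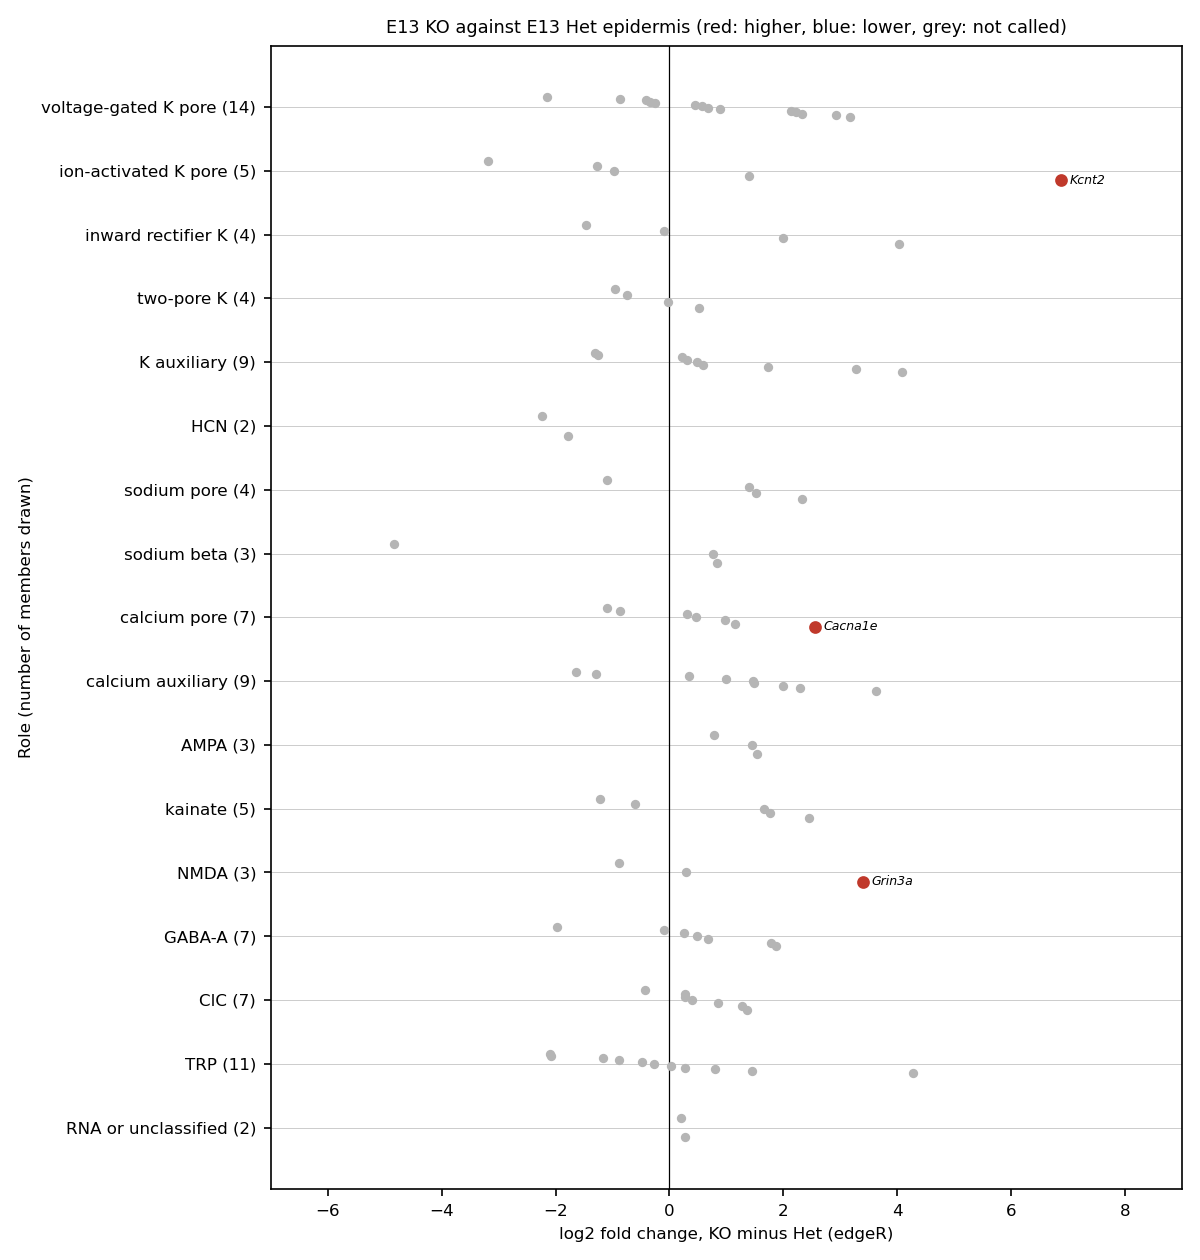
Log2 fold change of the tested members reported here, E13 KO minus E13 Het epidermis, on 1 line per role, with called members in colour and named. Grin3a, Cacna1e and Kcnt2 are named, all higher in KO, and most roles spread on both sides of 0.

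Between E9 and E13, 7 channel genes rose and 3 fell in Het epidermis. The AMPA subunit Gria2, the potassium pores Kcnh7 and Kcnj15, the NMDA subunit Grin3a, the calcium pores Cacna1e and Cacna1g and the GABA-A subunit Gabrp rose, and the chloride-proton exchanger Clcn5, the AMPA subunit Gria3 and the kainate subunit Grik5 fell. These 10 members are 9.71% of the 103 tested, and 7.29% of all genes were called. The 7 that rose are 6.8% of the members against 4.77% of all genes, and the 3 that fell 2.91% against 2.53%. The median log2 fold change was 0.197 for members and -0.00193 for all genes. The ages did not overlap in 34 members, 33% beside 28.9% of all genes, with 22 members higher at E13 (21.4% beside 15%) and 12 lower (11.7% beside 14%). An unadjusted p under 0.05 was reached by 25 members, 24.3% beside 19.7%.

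Markers of other cell types also moved between the ages. Of the dermal mesenchyme markers 2 of 9 tested, Dcn and Vim, were called higher at E13, and the list summed to 226 to 317 CPM at E9, with 4 of 10 markers at 0, and to 436 to 1508 CPM at E13. Of the macrophage markers 1 of 2 tested, Cd68, was called higher, and of the melanocyte markers 1 of 2 tested, Kit, was called lower. No other marker of these lists separated the ages. Csf1r was at 0, 0 and 1.38 CPM at E9 and 0, 1.24 and 24.5 CPM at E13. Mitf was at 3.69, 2.99 and 8.94 CPM at E9 and 4.52, 1.73 and 4.26 CPM at E13. The neuron markers had a median log2 fold change of -1.88 with none of 10 called by edgeR (2 at an unadjusted p under 0.05). The 6 muscle markers summed to 34.6, 28.7 and 227 CPM at E9, where replicate 4 stands apart, and to 0.226, 10.9 and 6.13 CPM at E13. Their part in the channel results was not tested.

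Gria2 had no count in the 3 E9 libraries and 926 counts over the 3 E13 Het libraries, where it was at 30.3, 74.2 and 32.5 CPM. Its level at E13 was therefore at least 287-fold higher, with E9 set to 3 counts over the group, and edgeR gave an adjusted p of 1.66e-05. Gria3, which codes for another subunit of the same receptor type, went the other way, from 27.1, 39.8 and 43.8 CPM to 6.33, 9.26 and 2.72 CPM, at -2.58 ± 0.59 (edgeR adjusted p = 0.0148). The E9 and E13 libraries do not overlap for either subunit. Gria1, which codes for another AMPA subunit, was low in both, at 1.42, 1.59 and 7.11 CPM at E9 and 0, 0.988 and 0.511 CPM at E13.

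Kcnh7, a potassium pore of the ERG family, was at 1.70, 0 and 0 CPM at E9 and 51.5, 89.5 and 64.7 CPM in E13 Het epidermis, with no overlap. The log2 fold change was 6.66 ± 0.79 (edgeR adjusted p = 0.000243), and KO epidermis was alike at 40.0, 60.6 and 62.9 CPM. Gca, a gene that overlaps Kcnh7, was at 0.229 to 4.25 CPM at E9 and 5.65 to 11.7 CPM in E13 Het. Kcnj15, an inward rectifier found in epithelia, was at 15, 9.51 and 5.96 CPM at E9 and 22.6, 43.5 and 34.0 CPM at E13 (1.71 ± 0.46, edgeR adjusted p = 0.0367).

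Cacna1e and Grin3a, both higher again in KO epidermis, rose from E9 to E13. Cacna1e was at 3.69, 6.52 and 8.48 CPM at E9 and 19.9, 20.6 and 53.4 CPM at E13, at 2.36 ± 0.41 (edgeR adjusted p = 0.00301). Grin3a was at 2.69, 0.352 and 1.38 CPM at E9 and 17.9, 14.7 and 21.1 CPM at E13, at 3.53 ± 0.53 (edgeR adjusted p = 0.00116). Cacna1g, the pore of a T-type calcium channel that opens at low voltage, was at 0.709, 4.76 and 4.13 CPM at E9 and 21.9, 33.0 and 10.2 CPM at E13, at 2.78 ± 0.66 (edgeR adjusted p = 0.0185). For all 3 genes every E13 library lies above every E9 library.

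Gabrp was at 2.27, 5.46 and 17.9 CPM at E9 and 300, 191 and 1426 CPM in E13 Het epidermis. The groups do not overlap, E13 Het replicate 3 lies far above the other libraries, and the log2 fold change was 6.31 ± 1.20 (edgeR adjusted p = 0.0293). KO epidermis held 974, 485 and 852 CPM, within the range of the E13 Het libraries, at 0.26 ± 0.92 against them (edgeR adjusted p = 0.967). It was the only GABA-A subunit with at least 1 CPM in all 3 E13 Het libraries. GABA-A receptors are pentamers that normally combine several kinds of subunit.

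Among the members that fell, Clcn5, which codes for an exchanger that helps acidify endosomes, was at 110, 90.2 and 157 CPM at E9 and 11.1, 36.9 and 24.2 CPM at E13. It had no overlap and a log2 fold change of -2.29 ± 0.37 (edgeR adjusted p = 0.00135). The other 6 ClC genes tested did not pass. Grik5 was at 51.5, 56.4 and 79.3 CPM at E9 and 8.59, 19.4 and 36.3 CPM at E13, at -1.53 ± 0.41 (edgeR adjusted p = 0.0357), and the KO levels of 58.8 to 81.0 CPM overlap the E9 levels. Zfp574, a gene that overlaps Grik5, was at 22.2 to 34.7 CPM at E9 and 33.5 to 35.4 CPM at E13.

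Some members with larger changes did not pass. Kcnma1 was at 0.993, 3.52 and 0 CPM at E9 and 27.6, 30.8 and 18.2 CPM at E13 (4.05 ± 1.36, edgeR adjusted p = 0.0945). Kcnip1, a calcium-binding subunit of A-type potassium channels, was at 0.993, 5.99 and 0 CPM at E9 and 47.0, 36.7 and 48.3 CPM at E13 (adjusted p = 0.164). Trpc4, a receptor-operated calcium channel, was at 0, 0.528 and 0 CPM at E9 and 12.4, 13.5 and 5.96 CPM at E13 (edgeR adjusted p = 0.0551). All 3 show no overlap between ages.

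Gria2, Kcnh7, Grin3a, Clcn5 and Cacna1e kept their calls in all 6 refits without 1 library. The other 5 calls each ended in some: Gria3 without E9 replicate 2 or 4 (edgeR adjusted p up to 0.0656), Cacna1g without E13 replicate 2 or E9 replicate 1 (up to 0.0701), and Gabrp without E9 replicate 1 or 2 (up to 0.127). Kcnj15 lost its call without E13 replicate 2 or 3 or E9 replicate 2 or 4 (up to 0.145), and Grik5 in every refit but that without E13 replicate 3 (up to 0.138). Without E9 replicate 2 the number of called members was 6, and without the library with fewest genes of each group it was 5. With limma voom Cacna1g was at an adjusted p of 0.0656 and Gabrp at 0.436.

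**Figure D4:**
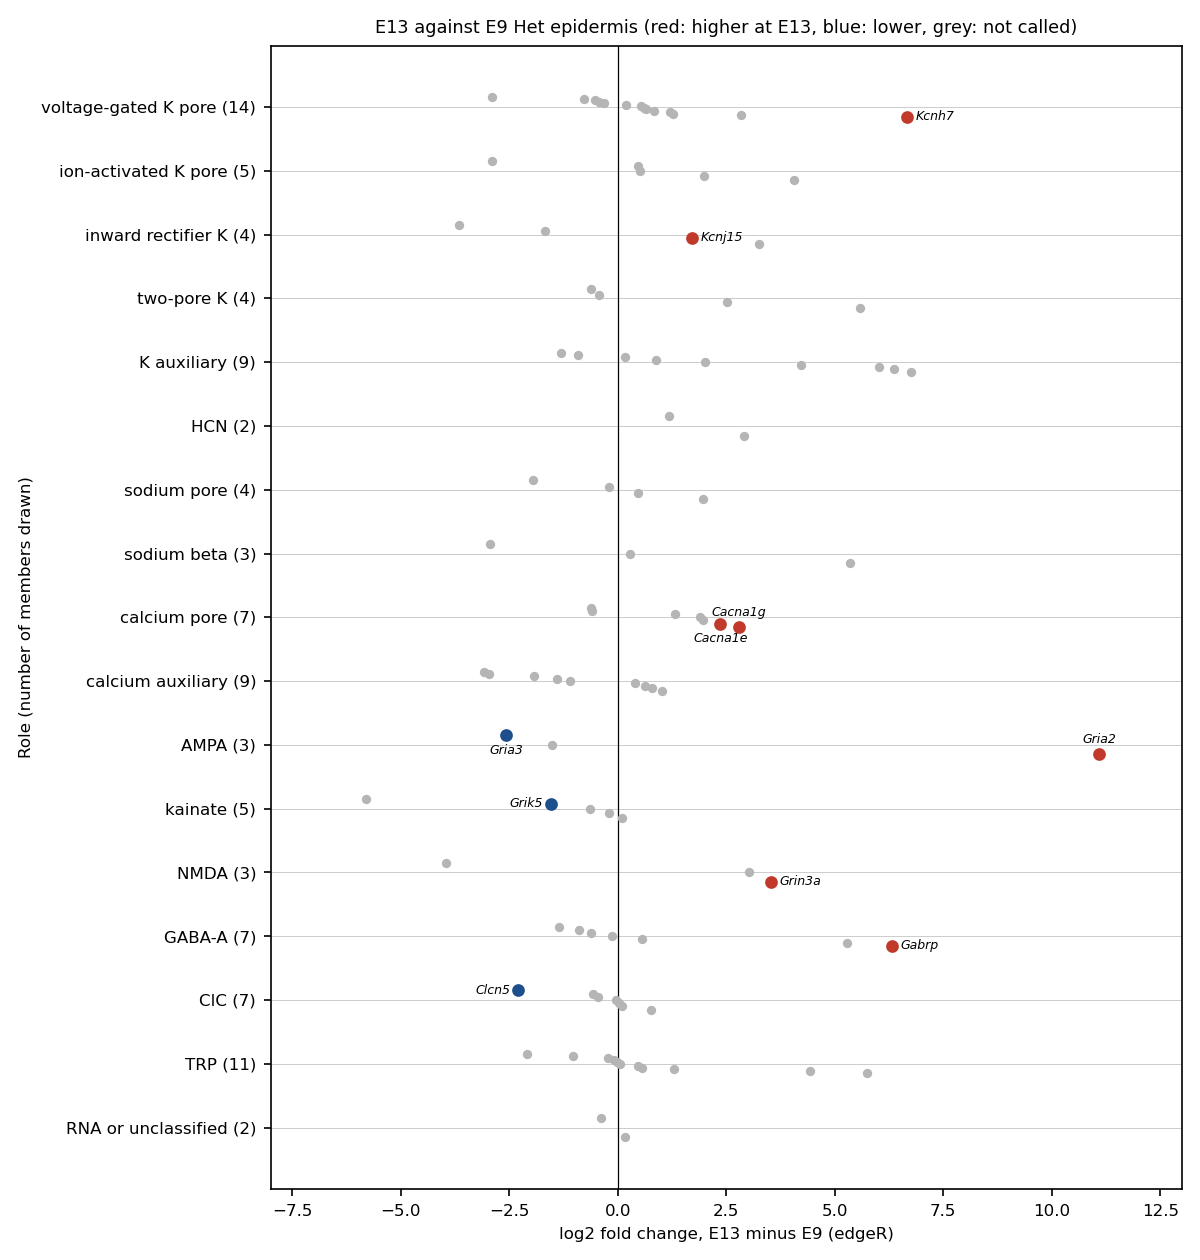
Log2 fold change of the tested members reported here, E13 minus E9 Het epidermis, by role, with called members in colour and named. The 7 members called higher at E13 belong to 6 roles, and the 3 called lower are Clcn5, Gria3 and Grik5.

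The 250 bases upstream of the start listed for 3 genes that rose by E13 are shown for comparison with those above. The Gria2 window is chr3:80802836-80803085 on the minus strand, again before a start inside the gene's span, with 64.8% G+C, 19 CpG pairs and no motif match. The Kcnh7 window is chr2:63184288-63184537 on the minus strand, with 67.6% G+C, 16 CpG pairs, 4 GC boxes read on the other strand as CCGCCC and 1 CCAAT box read as ATTGG. The Gabrp window is chr11:33578958-33579207 on the minus strand, reaching into the gene's span, with 49.2% G+C, 1 CpG pair and no match.
Gria2 upstream: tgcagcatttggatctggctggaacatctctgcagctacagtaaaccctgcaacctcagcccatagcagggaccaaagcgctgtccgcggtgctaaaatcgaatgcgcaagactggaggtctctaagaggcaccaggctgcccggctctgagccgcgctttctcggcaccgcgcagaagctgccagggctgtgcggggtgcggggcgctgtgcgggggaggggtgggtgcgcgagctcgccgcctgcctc
Kcnh7 upstream: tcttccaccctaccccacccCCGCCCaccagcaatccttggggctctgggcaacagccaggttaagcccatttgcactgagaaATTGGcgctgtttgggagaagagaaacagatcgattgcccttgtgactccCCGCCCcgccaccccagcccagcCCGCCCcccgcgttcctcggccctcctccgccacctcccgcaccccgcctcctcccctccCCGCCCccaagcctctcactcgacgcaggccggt
Gabrp upstream: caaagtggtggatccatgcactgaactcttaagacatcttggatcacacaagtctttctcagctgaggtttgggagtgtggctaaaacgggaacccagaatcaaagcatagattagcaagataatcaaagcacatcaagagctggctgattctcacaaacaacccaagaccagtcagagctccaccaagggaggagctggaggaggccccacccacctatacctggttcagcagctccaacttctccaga

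RefSeq promoters were matched for 154 members, and their G+C content had a median of 58.6%, beside 52% for all 27025 promoters of the table, with 9 against 6 CpG pairs. The motifs were searched on both strands in the 250 bases upstream, and matches to different motifs may overlap. The GC box GGGCGG was in 44.2% of member promoters and 32.9% of all, the CCAAT box CCAAT in 29.2% and 34.5%, and the TATA box TATAAA in 7.14% and 13%. The AP-2 site GCCNNNGGC was in 14.9% and 13.6%, the AP-1 site TGANTCA in 3.9% and 6.87%, and a half-site of the p53 family in 2.6% and 7.18%. TCAGCACC, the left part of the RE1 element known from neuronal genes, and the cAMP response element TGACGTCA were each in 0.649% of member promoters, and in 1.27% and 1.62% of all. These matches are descriptions of the letters, and no binding was measured here.

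KO epidermis at E13 was also set against Het epidermis at E9, which asks how far the KO cells differ from the early epidermis. These groups differ in both age and genotype, so age and genotype cannot be told apart in this comparison. Here 10 members, among them Gria2, Grin3a, Cacna1e, Kcnh7, Cacna1g, Kcnd2, Clcn4-2, Gabrp and Kcnj15, were higher in KO and the sodium channel beta subunit Scn4b and Clcn5 were lower. The 12 members are 11.7% of the 103 tested, and 7.67% of all genes were called. The 10 higher are 9.71% of members against 4.62% of all genes, and the 2 lower 1.94% against 3.05%. This comparison shares its groups with both comparisons above, so its values are given beside them and are no separate support. The median log2 fold change was 0.707 for members and 0.0149 for all genes, and 29 members, 28.2%, had an unadjusted p under 0.05, beside 21% of all genes. KO and E9 libraries did not overlap in 38 members, 36.9% beside 32% of all genes, of which 30 were higher in KO (29.1% beside 16.7%) and 8 lower (7.77% beside 15.3%). Markers of other cells moved as well: the dermal mesenchyme markers Dcn, Vim and Col3a1, 3 of 9 tested, and the glia marker Erbb3, 1 of 2 tested, were called higher in KO. Col3a1 was at 15.9, 13.2 and 33.7 CPM at E9 and 593, 925 and 848 CPM in KO, and the mesenchyme list summed to 226 to 317 and 1144 to 2226 CPM. Their part in the channel results was not tested.

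Kcnd2, Clcn4-2 and Scn4b were called in neither of the other epidermal comparisons. Kcnd2 was at 1.13, 0 and 0 CPM at E9 and 29.4, 34.1 and 21.5 CPM in KO epidermis, at 6.02 ± 1.29 (edgeR adjusted p = 0.0098). Clcn4-2, a chloride-proton exchanger of endosomes, was at 26.7, 33.3 and 30.7 CPM at E9 and 52.6, 67.0 and 83.3 CPM in KO (1.16 ± 0.28, edgeR adjusted p = 0.0184). Scn4b was at 28.8, 14.1 and 5.50 CPM at E9, 3.84, 1.36 and 1.02 CPM in E13 Het and 0, 0.134 and 0 CPM in KO, a single count over the KO libraries. The E9 to KO ratio of pooled counts was 322-fold, with an exact 95% counting interval of 57.3 to 12750 (edgeR adjusted p = 0.00995). For all 3 genes the groups do not overlap.

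The other called members had been called in at least 1 of those. Grin3a was 6.93 ± 0.57 and Cacna1e 4.92 ± 0.45 higher on the log2 scale in KO than at E9 (edgeR adjusted p = 1.21e-05 and 1.78e-05). Gria2 was at least 823-fold higher, from no count to 2586 counts. Kcnh7 and Gabrp, at 6.32 ± 0.78 and 6.57 ± 1.22 (edgeR adjusted p = 0.00036 and 0.0254), stood beside 6.66 ± 0.79 and 6.31 ± 1.20 for E13 Het against E9. Gria2, Grin3a, Cacna1e, Kcnh7 and Cacna1g kept their calls in all 6 refits. Kcnd2 lost its call without KO replicate 1 or 2 (adjusted p up to 0.0551) and Scn4b without KO replicate 1 or E9 replicate 1 (up to 0.0928). Clcn4-2 lost it without KO replicate 2 or 3 or E9 replicate 1 or 2 (up to 0.0888). Clcn5 kept it without E9 replicate 2 alone, Gabrp without E9 replicate 4 alone and Kcnj15 without E9 replicate 1 alone (otherwise up to 0.116, 0.114 and 0.148), and with limma voom Gabrp and Kcnj15 were at adjusted p of 0.334 and 0.055. Without KO replicate 1 the number of called members was 7.

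Channel genes differed between dermis and epidermis about as often as other genes. Against E13 Het dermis, E13 Het epidermis had higher Kcnh7, Kcnq1ot1, Kcnip1, Gabrp, Kcnj15, Trpv6, Kcnma1, Gria2, Kcnk1, Cacna1e, Trpm6, Grin3a, Kcna7, Clcn3 and Trpc2, and lower Cacna1g, Kcnk2, Kcne4, Kcna4, Cacna1c, Kcna6, Grik3 and others. In all 15 members were higher and 22 lower in epidermis, 37 of the 109 tested or 33.9%, and 34.7% of all 12975 genes were called, 16.5% higher and 18.2% lower. The median log2 fold change was -0.657 for members and -0.134 for all genes, and 41 of 109 members were above 0. The tissues did not overlap in 60 members, 55% beside 55.9% of all genes, with 19 higher in epidermis (17.4% beside 24.8%) and 41 lower (37.6% beside 31.2%), and 44 members, 40.4% beside 44.7%, had an unadjusted p under 0.05.

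Of the members higher in epidermis, Kcnh7 and the calcium-selective channel Trpv6 had no count in any dermal library. Kcnh7 was at least 1372-fold higher in epidermis, against 3 counts over the dermal group (edgeR adjusted p = 7.16e-05). Trpv6 was at 21.5, 11.0 and 5.79 CPM in E13 Het epidermis and at least 224-fold higher (edgeR adjusted p = 0.00321). Trpm6, a magnesium channel fused to a kinase, was at 2.71, 2.59 and 7.66 CPM in epidermis, also with no dermal count, and at least 80.3-fold higher (edgeR adjusted p = 0.0162). Kcna7, a voltage-gated potassium pore, was at 5.88, 0.865 and 1.53 CPM, at least 43.2-fold higher (adjusted p = 0.0321), and it lost its call in every refit without 1 library (adjusted p up to 0.0908).

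Gabrp was at 191 to 1426 CPM in epidermis and at 0.347, 0 and 0 CPM in dermis, a log2 fold change of 12.39 ± 1.40 (edgeR adjusted p = 0.000815). Kcnip1 was at 47.0, 36.7 and 48.3 CPM in epidermis and 3.06, 4.40 and 1.83 CPM in dermis (3.81 ± 0.44, edgeR adjusted p = 0.000466). Kcnj15 was at 22.6 to 43.5 CPM in epidermis and at most 0.860 CPM in dermis (5.80 ± 0.95, adjusted p = 0.00228), and Kcnma1 at 18.2 to 30.8 CPM and at most 1.90 CPM (4.96 ± 1.06, adjusted p = 0.00804). Kcnk1, a leak pore of the K2P family, was at 54.2, 35.2 and 54.6 CPM in epidermis and 4.57, 8.54 and 0.753 CPM in dermis (3.37 ± 0.78, edgeR adjusted p = 0.013). None of these 5 genes had overlapping libraries. Cacna1e, Gabrp, Kcnj15, Kcnk1 and Trpm6 had at least 1 CPM in every epidermal library and less in at least 1 dermal library. No other member did so. Some of them still had counts in dermis, as Kcnk1 shows, and Cacna1e was at 4.16, 0.517 and 4.84 CPM there.

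Kcnq1ot1 was at 967, 1154 and 891 CPM in E13 Het epidermis and 90.8, 34.9 and 53.9 CPM in dermis, at 4.06 ± 0.34 (edgeR adjusted p = 0.00011). The E9 libraries were at 803 to 959 CPM and the KO libraries at 994 to 1413 CPM, so the 9 epidermal libraries lie together above the 3 dermal ones. RNA selection coincides with tissue here. Kcnq1, which overlaps this RNA, was at or below 1.97 CPM in every library.

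Of the members lower in epidermis, Cacna1g was at 21.9, 33.0 and 10.2 CPM in epidermis and 627, 481 and 478 CPM in dermis, at -4.61 ± 0.42 (edgeR adjusted p = 0.000217). Its KO levels of 31.3 to 63.1 CPM also lie far below dermis. Cacna1c, the pore of L-type calcium channels, was at 7.46, 19.3 and 5.28 CPM in epidermis and 73.3, 46.9 and 55.9 CPM in dermis (-2.45 ± 0.49, edgeR adjusted p = 0.00616). The calcium auxiliary subunit Cacna2d1 was lower too, at -4.48 ± 1.33 (edgeR adjusted p = 0.0381), as were Cacng7 and Cacng8, subunits that accompany AMPA receptors (adjusted p = 0.0291 and 0.0359). Of the 9 calcium auxiliary subunits tested, these 3 were lower and none was higher.

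Genes of every potassium channel role were called on both sides. Kcne4, a small subunit that inhibits several potassium pores, was at 0, 3.46 and 3.23 CPM in epidermis and 128, 102 and 140 CPM in dermis (-5.70 ± 0.72, edgeR adjusted p = 0.00118). Kcnk2, a leak pore that responds to membrane stretch, was at 5.88, 11.0 and 8.51 CPM and 48.6, 70.5 and 45.6 CPM (-2.71 ± 0.37, adjusted p = 0.000949). Kcna4 and Kcna6, pores of the Shaker family, were at 0 to 1.11 and 0 to 6.64 CPM in epidermis and at 29.3 to 42.0 and 48.0 to 56.9 CPM in dermis (edgeR adjusted p = 0.00255 and 0.0146). In all 5 voltage-gated potassium pores were lower in epidermis, Kcna3 and Kcng2 also among them, and 2 were higher. Kcng2 had no count in E13 Het epidermis and was at least 32.7-fold lower there (edgeR adjusted p = 0.0165).

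Glutamate receptor subunits were divided between the tissues. Gria2 was higher in epidermis, at 30.3 to 74.2 CPM against 5.03, 1.29 and 9.32 CPM in dermis (3.10 ± 0.72, edgeR adjusted p = 0.0125), and Grin3a at 14.7 to 21.1 CPM against 1.16, 1.21 and 4.34 CPM (2.95 ± 0.76, adjusted p = 0.0184). Gria3 was lower, at 2.72 to 9.26 CPM against 21.9, 21.4 and 35.4 CPM (-2.12 ± 0.56, adjusted p = 0.0197), and Gria1 at 0 to 0.988 CPM against 9.42, 4.22 and 14.8 CPM (-4.15 ± 1.26, adjusted p = 0.0343). Grik3, a kainate subunit, was at 12.9, 2.10 and 0 CPM in epidermis and 75.8, 77.6 and 88.8 CPM in dermis (-4.14 ± 1.10, edgeR adjusted p = 0.0254). For these 5 subunits the libraries do not overlap. All 4 AMPA subunits had at least 1 CPM in all 3 dermal libraries, against Gria2 and Gria3 in E13 Het epidermis.

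Of the 30 called members with the smallest adjusted p, 13 kept their call in every refit without 1 library: Kcnh7, Kcnq1ot1, Kcnip1, Gabrp, Kcnj15, Trpv6, Clcn3 and Kcnma1 higher in epidermis, and Cacna1g, Kcnk2, Kcne4, Kcna4 and Cacna1c lower. Single libraries ended the calls of Kcnk1 (dermis replicate 1, edgeR adjusted p = 0.0524), Kcna6 (dermis replicate 2, adjusted p = 0.0564) and Gria2 (E13 Het replicate 2 or dermis replicate 1, up to 0.0562). Cacna1e and Trpm6 lost theirs without E13 Het replicate 3 or dermis replicate 1 (up to 0.0756 and 0.074), Grin3a without those or dermis replicate 2 (up to 0.0632), and Kcng2 and Gria3 without any 1 dermis replicate (up to 0.071 and 0.0957). Grik3 and Cacng7 lost theirs without E13 Het replicate 2 or any 1 dermis replicate (up to 0.0971 and 0.09), and Gria1 without E13 Het replicate 3 or any 1 dermis replicate (up to 0.141). Cacng8 lost its call without E13 Het replicate 2 or 3 or dermis replicate 2 (up to 0.0926). Without dermis replicate 1 or 3 Cacng8 had too few counts to be tested. The number lower was less stable, since it was 6, 5 and 6 without dermis replicate 1, 2 and 3, where the number higher was 9, 12 and 14, and 24 members in all were called without E13 Het replicate 3. With raw library totals in place of TMM the log2 fold changes of all genes moved up by a median of 0.436, no called member changed sign, and 7 calls were lost (among them Cacng7, Clcn4-2, Kcna3, Kcnj3, Kcnmb4 and Trpc4ap). With limma voom Gabrp was at an adjusted p of 0.387.

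**Figure D5:**
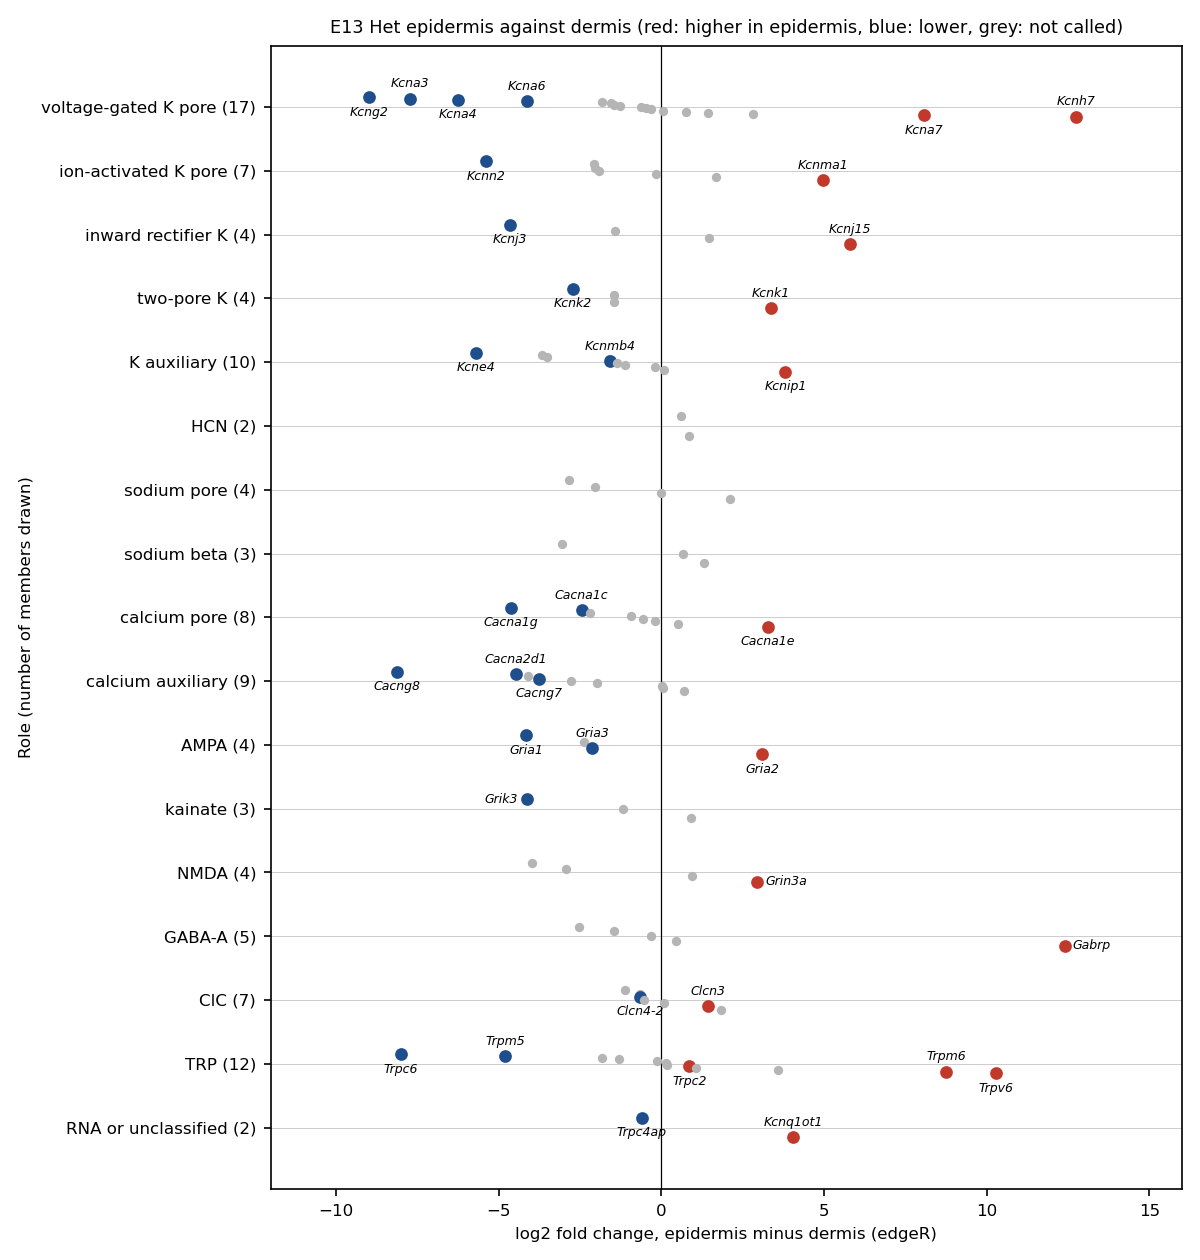
Log2 fold change of the tested members reported here, E13 Het epidermis minus E13 Het dermis, by role, with called members in colour and named. Calcium auxiliary subunits lie mostly to the left, lower in epidermis, and voltage-gated potassium pores spread on both sides of 0. Kcnh7, Gabrp and Trpv6 lie farthest to the right.

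Channels and partners outside the symbol rule were taken from 3 lists. Of 94 other channel genes 43 were tested in epidermis, and in KO against E13 Het none was called by edgeR (8 at an unadjusted p under 0.05, median log2 fold change 0.428). From E9 to E13 the calcium-release channels Itpr3 and Ryr2, the scramblase-channel Ano6 and the sodium leak channel Nalcn rose, and Itpr1 and the endolysosomal channel Tpcn1 fell. Nalcn was at 0, 4.23 and 0 CPM at E9, 56.1, 28.8 and 30.5 CPM in E13 Het, 211, 169 and 195 CPM in KO and 7.22, 3.10 and 3.51 CPM in dermis, and its rise by E13 was lost without any 1 of the E13 Het replicates (edgeR adjusted p up to 0.057). In KO against E13 Het it was at 2.31 ± 0.75 and did not pass (adjusted p = 0.241). Against dermis, 9 of 44 were higher in epidermis and 10 lower, with Nalcn among the first and the calcium-activated chloride channel Ano1 (3.06 to 4.97 against 69.3 to 89.8 CPM) among the second.

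Of 24 tested pumps, cotransporters and calcium sensors, the potassium-chloride cotransporter Slc12a7 rose and Slc12a4, another member of that family, fell in KO epidermis. Slc12a7 was at 46.3, 61.3 and 58.6 CPM in E13 Het and 120, 85.4 and 118 CPM in KO (0.95 ± 0.22, edgeR adjusted p = 0.0368). Slc12a4 was at 147, 141 and 137 CPM in E13 Het and 55.3, 50.2 and 66.2 CPM in KO (-1.32 ± 0.21, edgeR adjusted p = 0.0031). Neither gene's libraries overlap. Slc12a4 kept its call in all 6 refits, and Slc12a7 in that without KO replicate 2 alone (adjusted p up to 0.162). Of 25 tested channel scaffolds and synaptic partners none was called in this comparison by edgeR, and 3 were at an unadjusted p under 0.05. From E9 to E13 Gphn, the scaffold of inhibitory synapses, rose (1.76 ± 0.50, edgeR adjusted p = 0.0477) and the membrane adaptor Ank2 fell (-1.17 ± 0.29, adjusted p = 0.0255). Gphn lost its call without E13 replicate 2 or 3 or E9 replicate 1 or 4 (adjusted p up to 0.176), and Ank2 without E13 replicate 1 or 2 or E9 replicate 1 (up to 0.138).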

How the data were processed

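The authors deposited 1 file of raw counts for each RNA library, with 1 row per gene symbol. Their tools, per the submitters' processing notes, were HTSeq, TopHat2 and Bowtie2, on mm10. Strand use in counting was not given in the sources used here. Left out were the 5 summary lines of each file, 48.8% to 63.8% of entries in epidermal and 20.2% to 21.6% in dermal files. The ATAC and ChIP samples were not analysed here. The members and gene lists were chosen with earlier results of these data known.

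The counts of all genes were fitted with edgeR 4.0.16 in R 4.3.3 (filterByExpr, TMM, robust quasi-likelihood test, Benjamini-Hochberg adjusted p over all genes tested). One fit of 9 libraries (6 residual degrees of freedom) gave the 3 epidermal comparisons, and a fit of 6 libraries (4 residual degrees of freedom) gave that with dermis. The standard error is the size of the log2 fold change divided by the root of F. For a bound, a group without counts was given 3 counts in total. Bounds and intervals reflect counting error alone. In simulated data with the same totals, 53.5%, 56.5%, 50% and 39.5% of 4-fold changes were called in the 4 comparisons. The order is KO against E13 Het, E13 against E9, KO against E9 and epidermis against dermis. The changed genes were drawn only from genes above a floor of mean counts. The share for members with fewer counts was therefore not measured. Each simulation changed 200 genes, where 287, 952, 1001 and 4504 genes were called in the data, in the same order. Adjusted p depends on how many genes change, so the shares may differ in the data, most of all against dermis. Named are the called members of each comparison (the 30 with the smallest adjusted p against dermis), up to 6 uncalled members with the largest change, at least 5 CPM and no overlap, the member of each role with the most CPM, and up to 4 called genes per list. Grik5, Gria2 in KO against Het, Kcnj14, Cacnb4, Gabrg1, Cacna2d1 and Kcna3, and the further called genes of the lists, were added after their values were seen. Some members are counted but not reported here by name.

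Alternatives were DESeq2 1.42.0, limma voom (limma 3.58.1) with sample weights, RLE factors, raw totals, a 2-fold threshold, no filter, a filter at 5 CPM on average, each replicate left out, all 12 libraries, 2 groups alone, a replicate block, no library with fewest genes, and no Rn45s and Lars2. Positions and promoters are from RefSeq tables of GRCm38.p6, where 203 members matched by symbol and 2 by synonym, and 47 members overlap another counted gene.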

Additional observations from a re-analysis of the deposited data

How the results depend on the processing

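Counts of called members moved by over 1.5 times under these settings. KO against E13 Het epidermis gave 4 calls, 9 with DESeq2, 9 with limma voom and 2 with all 12 libraries in 1 fit. E13 against E9 gave 10, 20 with DESeq2, 16 with limma voom and 5 without the library with fewest genes of each group. KO against E9 gave 12, 23 with DESeq2 and 28 with limma voom. With 1 replicate left out the counts ran from 3 to 5 for KO against E13 Het, from 6 to 9 for E13 against E9, from 7 to 12 for KO against E9 and from 15 to 44 for epidermis against dermis (37 with all replicates). Whether replicate numbers pair the samples is not known. The deviations of same-numbered KO and E13 Het libraries correlated at -0.056, 0.253 and -0.059, and not every sample correlated best with its own number. Deviations from a mean of 3 libraries depend on each other, so these values cannot decide it. With the replicate number as a block the counts were 5 for KO against E13 Het, 8 for E13 against E9, 25 for KO against E9 and 17 for epidermis against dermis. The block fits with E9 held only replicates 1 and 2 of each group, the numbers that both share. For E13 against E9, Gria2 and Clcn5 passed there. Kcnh7, Grin3a and Cacna1e, called in all refits without 1 library, did not (edgeR adjusted p = 0.121, 0.197 and 0.291). Over the named members and their comparisons, 1701 alternative values stayed on the same side of the threshold, 88 became called and 156 were no longer called. No alternative reversed the direction of a change called as reported, and direction was not compared for uncalled changes. The spread between 3 libraries per group, with E13 Het replicate 1 and KO replicate 3 the shallowest in genes detected, limits which changes of low genes could be called.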

Other observations

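Among the 4 members detected in all 3 libraries of E9 Het epidermis and of no other group were Grik4, Grin2c and Kcnq3. Kcnq3 was at 1.56, 1.59 and 5.96 CPM at E9, 3.84, 0.494 and 0 CPM in E13 Het and 3.87, 0.259 and 1.72 CPM in dermis. Its E9 libraries thus overlap those of both groups. Grik4, a kainate receptor subunit, was at 12.3, 16.6 and 5.04 CPM at E9, at 0, 0.494 and 0 CPM in E13 Het and at 0, 3.22 and 0 CPM in KO epidermis. The E9 and E13 Het libraries do not overlap, and the change did not pass (edgeR adjusted p = 0.138). Grin2c, an NMDA receptor subunit best known from the cerebellum, was at 4.25, 7.22 and 21.3 CPM at E9, at 0, 0 and 2.04 CPM in E13 Het and had no count in dermis (edgeR adjusted p = 0.297 for E13 against E9). Among list genes, Ryr2, the calcium-release channel known from heart muscle, was at 5.96, 5.11 and 17.4 CPM at E9, 64.9, 31.5 and 153 CPM in E13 Het and 1.97, 7.92 and 12.7 CPM in KO epidermis, so its E13 Het libraries lie above all other epidermal libraries, and KO against E13 Het did not pass (edgeR adjusted p = 0.0503). Dpp6, a partner of A-type potassium pores, was at 2.55, 4.93 and 4.82 CPM at E9 and 27.4, 28.2 and 23.3 CPM in KO, and passed there (edgeR adjusted p = 0.0244), but not without KO replicate 1 or 2 or E9 replicate 1 or 2 (up to 0.126).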
